A study of Drosophila melanogaster with 5 samples.

Results

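The genes of the insect cuticle protein families named Cpr, Lcp, Ccp84 and Twdl, with the adult cuticle protein gene Acp65Aa, were followed through 5 RNA libraries of Drosophila melanogaster. They were chosen by name alone: every current RefSeq symbol that starts with Cpr and a digit, or with Twdl, Lcp or Ccp84, was matched by its CG locus tag to the identifiers of the deposited transcript counts. The rule gave 121 genes, 3 of them pseudogenes, of which 87 had a count in at least 1 library, out of 13265 genes listed in the series. The cytochrome P450 reductase gene Cpr, whose symbol carries no digit, is outside the rule.

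The insect cuticle is laid down by epidermal cells as layers of chitin fibres bound by proteins. Most genes named Cpr, Lcp and Ccp84 encode secreted proteins with the Rebers-Riddiford motif, which binds chitin, while the Tweedle proteins encoded by Twdl genes form a separate family known for mutations that change body shape. Different members are used in larval, pupal and adult cuticle, in hard and soft regions, and in the corneal lens of the eye. An adult fly goes on adding cuticle in the hours and days after it emerges, and hardens and darkens it at the same time.

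The study asked what transcription arises from transposable elements, and each of its 5 libraries of polyadenylated RNA was a group of its own. Whole bodies of the lines Rev, IR6 and iso1a gave 1 random-primed, unstranded Illumina library each, made from 10 adult males younger than 24 h together with 10 adult females aged 0 to 3 days. Both sexes and all ages were pooled in a library, the exact ages within those ranges were not given, and the labels do not say what the line names stand for. The iso1a whole body carried the label normalization yes, and Rev and IR6 carried normalization no, so line and normalization cannot be told apart for iso1a. The other 2 libraries were stranded libraries of capped 5′ ends (CAGE) from 20 iso1a ovaries, read by 454 pyrosequencing (normalization yes) or by Solexa (normalization no).

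Gene counts summed to 11685814 in Rev, 9633168 in IR6, 4379746 in the iso1a whole body, 2813522 in the Solexa ovary library and 109980 in the 454 ovary library. With 1 library per group no difference had a replicate check, so no p-values were computed, and the 95% intervals given below (Clopper-Pearson) cover counting error only. Eggshell, testis and accessory gland genes fitted the labelled tissues: all 10 eggshell genes had counts in both ovary libraries. The 5 testis and 5 accessory gland genes had none there and had counts in every whole body. The germline list fitted less well. Of its 5 genes, nos was listed in no library, and bam had 0 counts in the 454 ovary and 27 in the Solexa ovary. Counts of osk, vas and otu were present in both. Scaled to the library's gene total (CPM, defined below), the list summed to 436 in the 454 ovary and 334 in the Solexa ovary. Rev, IR6 and iso1a had 589, 402 and 1471 CPM, so germline levels did not set the ovary apart. Genes of the larval salivary gland were at or near 0 in the whole bodies, with 1, 0 and 3 counts over the list in Rev, IR6 and iso1a. In bulk samples fewer cells that make a transcript and less transcript per cell cannot be told apart.

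In the whole bodies a few genes carried nearly all of the cuticle protein counts. The 121 genes together held 16105 counts in Rev, 10299 in IR6 and 14103 in iso1a, that is 0.138%, 0.107% and 0.322% of gene counts. Counting intervals of these shares ran from 0.136% to 0.140%, from 0.105% to 0.109% and from 0.317% to 0.327%, so no pair overlapped. The 5 most counted genes of each library made up 79.1%, 74.0% and 79.7% of these, and the 10 most counted 90.9%, 90.0% and 90.2%. At least 50 counts were reached by 26 of the 121 genes in at least 1 whole body, 15 more peaked between 10 and 49 counts, 45 between 1 and 9, and 35 had none, all 3 pseudogenes among the last. In Rev, 21 of the 87 listed cuticle protein genes, or 24.1%, had at least 50 counts, against 71.3% of all 13265 listed genes.

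**Figure D1:**
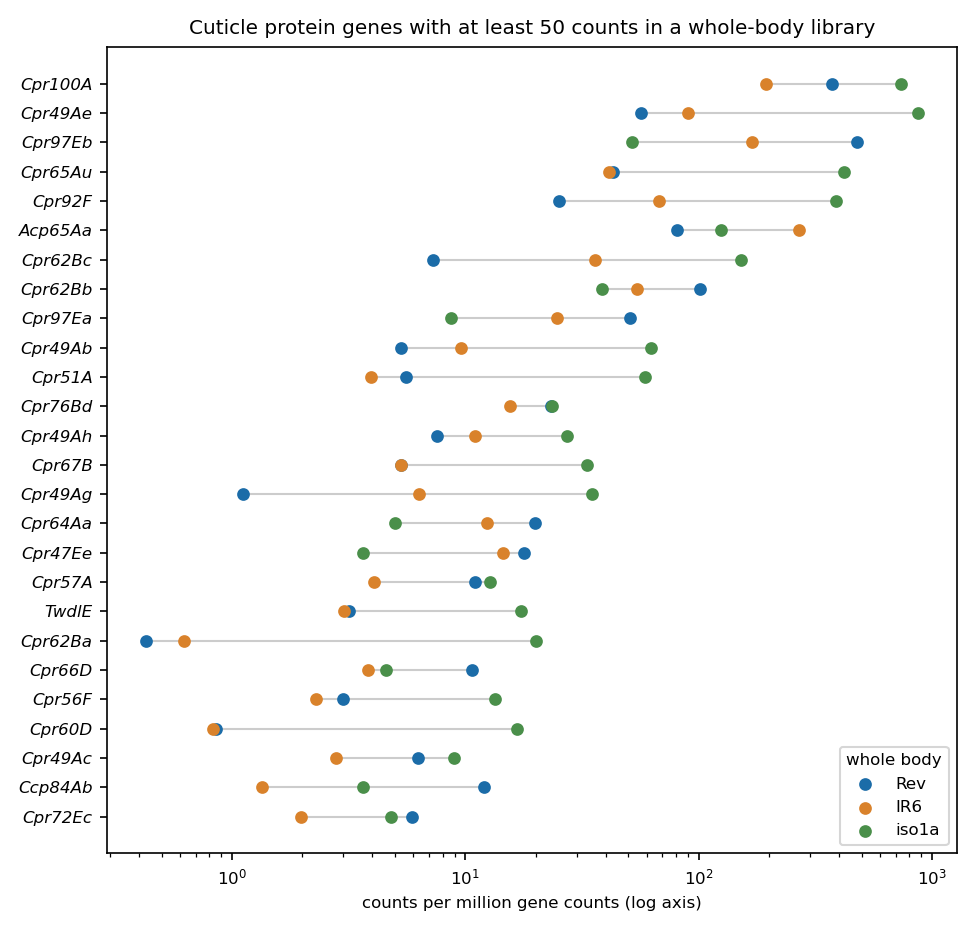
Level of each cuticle protein gene with at least 50 counts in a whole-body library, in counts per 1000000 gene counts (CPM) on a log axis, with 1 point per library and a grey line from the lowest to the highest. Cpr100A lay highest on average, from 195 CPM in IR6 to 736 CPM in iso1a, and the order of the lines differed from gene to gene.

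The most counted genes of Rev and iso1a were Cpr genes, and that of IR6 was Acp65Aa. Cpr97Eb (CG15884) had 5582 counts in Rev, 1625 in IR6 and 227 in iso1a, or 478, 169 and 51.8 CPM (counts per 1000000 gene counts). It was the most counted cuticle protein gene of Rev, fell between the other lines in IR6 and was lowest in iso1a. Cpr100A (CG12045) had 4366, 1877 and 3225 counts in the same order (374, 195 and 736 CPM), and ranked second in every whole body. Cpr49Ae (CG8505) had 659, 871 and 3828 counts (56.4, 90.4 and 874 CPM), which made it the most counted in iso1a, with Rev and IR6 both far below.

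Acp65Aa (CG10297), which encodes a protein of the adult cuticle, had 948 counts in Rev, 2592 in IR6 and 547 in iso1a (81.1, 269 and 125 CPM). It led the family in IR6. Cpr65Au (CG18778), from the same gene cluster, had 504, 396 and 1832 counts, nearly level between Rev and IR6 on the CPM scale (43.1 and 41.1) and far higher in iso1a (418). Cpr65Au overlaps the antisense RNA gene asRNA:CR46005 on the other strand, for which no counts were listed. These unstranded libraries cannot separate the strands, so this limit holds for each Cpr65Au value below. Cpr92F (CG5494) had 296, 652 and 1691 counts (25.3, 67.7 and 386 CPM), with Rev lowest and iso1a highest. Cpr76Bd (CG9299) was among the steadier genes, with 271, 150 and 103 counts (23.2, 15.6 and 23.5 CPM).

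The 3 whole bodies thus differed in which gene led. Among counts on the family, a share that needs no scaling between libraries, Cpr97Eb took 34.7% in Rev, 15.8% in IR6 and 1.61% in iso1a. Acp65Aa took 5.89%, 25.2% and 3.88%, and Cpr49Ae took 4.09%, 8.46% and 27.1%. Cpr100A held a narrower range of 27.1%, 18.2% and 22.9%. For iso1a, line and normalization differ together in these shares too.

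**Figure D2:**
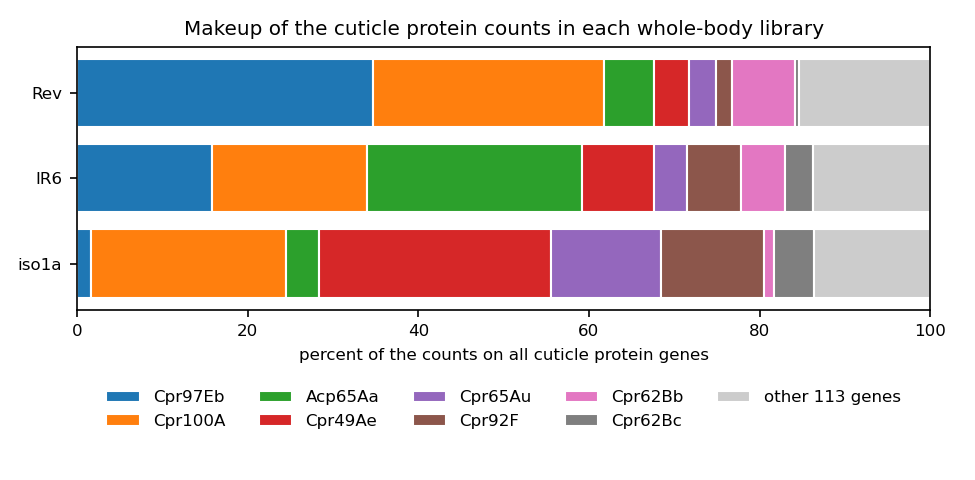
Share of the counts on all 121 cuticle protein genes taken by 8 of them in each whole-body library, in percent, with the rest in light grey. Cpr97Eb fills 34.7% of the Rev bar and 1.61% of the iso1a bar, Acp65Aa fills 25.2% of the IR6 bar, and Cpr49Ae fills 27.1% of the iso1a bar.

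Per kilobase of the longest annotated transcript, the scale on which levels of different genes can be set side by side, Cpr97Eb was highest in Rev at 453 CPM per kb, ahead of Cpr100A (271) and Acp65Aa (132). In IR6 Acp65Aa stood first at 438 CPM per kb, with Cpr97Eb at 160 and Cpr100A at 141. In iso1a Cpr65Au (795) and Cpr49Ae (737) stood above Cpr100A (534). Cpr65Au, behind Cpr49Ae and Cpr100A by counts in iso1a, thus stood ahead of both on this scale.

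The genes named for the larval cuticle were close to silent in these adults. Of the 17 genes named Lcp, 11 were listed at all, 16 stayed below 10 counts in every whole body, and together they had 6 counts in Rev, 2 in IR6 and 63 in iso1a. Lcp65Ag2 (CG10534) accounted for most of the last, with 46 counts in iso1a and 0 in Rev and IR6, at least 40.9-fold and 33.7-fold more when 3 counts stand in for each 0. It belongs to a group of copies named Lcp65Ag1, Lcp65Ag2 and Lcp65Ag3, which had 3, 46 and 2 counts in iso1a, and reads that fit more than 1 of them could have been split, so its own level is uncertain. Lcp1 and Lcp4, major proteins of the larval cuticle, had at most 2 counts in any library.

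Tweedle genes were scarce as well. Of 26 Twdl genes, 1 of them a pseudogene, 11 had counts in a whole body and 22 stayed below 10 counts in all 3. TwdlE (CG14534) alone reached 50, with 37 counts in Rev, 29 in IR6 and 76 in iso1a, and it overlaps lectin-28C on the other strand, which these unstranded libraries cannot separate. TwdlT (CG5812) followed with 12, 5 and 20 counts. In the row of 13 Twdl genes on arm 3R only TwdlB, TwdlD and TwdlP were listed, with 12, 17 and 6 counts over the row in Rev, IR6 and iso1a.

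Of the 7 genes of the Ccp84 cluster on arm 3R, 6 were listed and a neighbouring pair held most of the counts. Ccp84Ab (CG1252) had 140 counts in Rev, 13 in IR6 and 16 in iso1a, and Ccp84Aa (CG2360) had 27, 4 and 3. Both were high in Rev and low in the other lines. The other listed members, Ccp84Ac, Ccp84Ad, Ccp84Af and Ccp84Ag, had at most 2 counts in any library.

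Rev and IR6 shared tissue, platform and library type and differed in their line. Cuticle protein genes lay on both sides. A ratio was read where both libraries held 50 or more counts between them, which 25 of the 121 genes did, while 49 more had counts below that minimum. Rev exceeded IR6 by 2-fold or more for 8 of the 25 and fell short of it by as much for 4, while 13 stayed within 2-fold. Among all 10300 genes read this way, 4.34% were higher in Rev, 3.47% lower and 7.81% either, against 32% and 16% of these 25. Other scalings turned the split of all genes from 447 higher and 357 lower to 350 and 416 (TMM) or 334 and 450 (median ratio). Ccp84Ab, Cpr49Ag, Cpr50Cb, Cpr56F and Cpr72Ec would have missed the minimum had both libraries been at the lower level, so their place in the count depended on the library where they were high. Without them 5 of 20 were higher (25%) and 3 lower (15%), beside 3.53% higher, 2.73% lower and 6.26% either of the 9948 genes that pass in this way. The median log2 ratio of Rev to IR6 was 0.49 over the 25 and 0.39 over the 20, beside 0.10 over all genes.

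**Figure D3:**
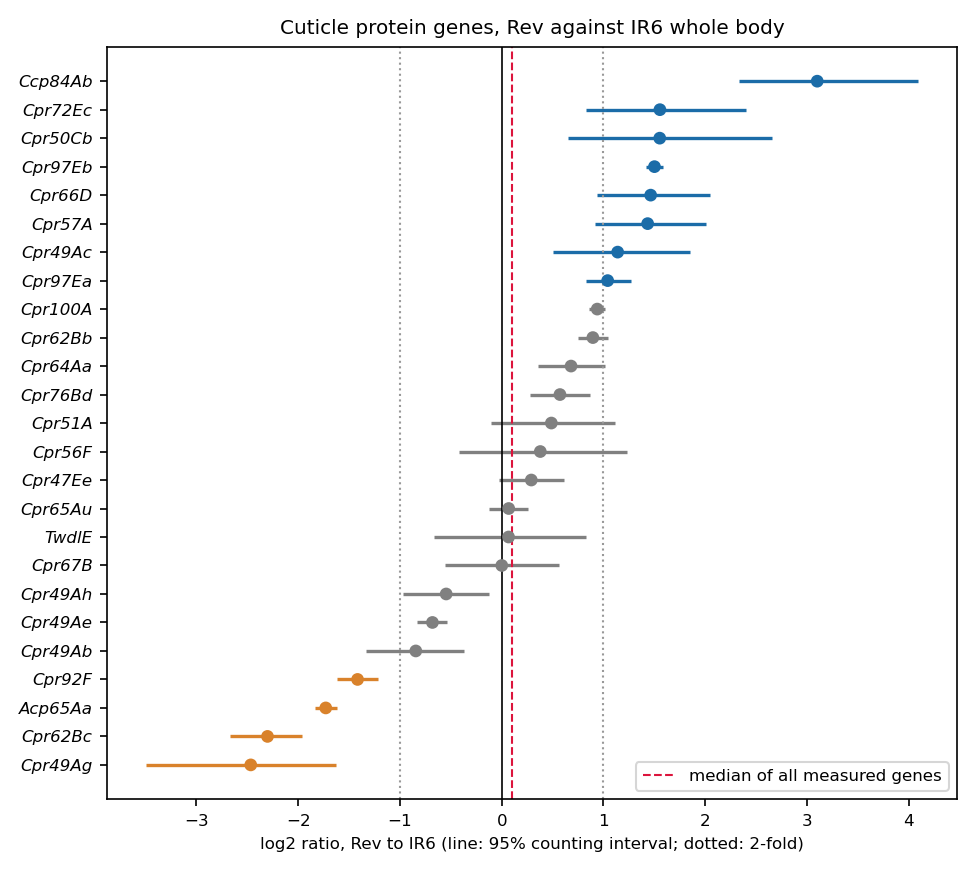
Log2 ratio of Rev to IR6 for the 25 cuticle protein genes with 50 or more counts over both, with 95% counting intervals; colours mark ratios beyond 2-fold in either direction, and the dashed line is the median of all genes, 0.10. The points run from −2.47 for Cpr49Ag to 3.10 for Ccp84Ab.

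The largest excess in Rev was that of Ccp84Ab, 8.58-fold, with a log2 ratio of 3.10 (2.33 to 4.10). Ccp84Aa, under the minimum of 50 counts, lay the same way with a log2 ratio of 2.33 (0.96 to 4.45). Cpr97Eb was 2.83-fold higher in Rev (log2 ratio 1.50, 1.42 to 1.58), and its neighbour Cpr97Ea (CG6131), with 595 counts against 238, was 2.06-fold higher (1.04, 0.82 to 1.27). Cpr97Ea was within 2-fold with TMM scaling (0.95).

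Counting error alone left only Ccp84Ab and Cpr97Eb with intervals wholly above 2-fold. The share of all genes under this stricter rule is not given here. Cpr49Ac (CG8502) had 73 counts against 27 (log2 ratio 1.14, 0.50 to 1.85) and Cpr50Cb (CG6305) had 44 against 12 (1.55, 0.65 to 2.65). Cpr57A (CG18066) had 129 counts against 39 (1.43, 0.92 to 2.00), but Obp57d, an odorant binding protein gene that overlaps it on the same strand, held exactly the same counts in all 5 libraries, so which gene these reads came from cannot be told apart. Cpr100A (0.94, 0.86 to 1.02) and Cpr62Bb (0.90, 0.75 to 1.05) lay just short of 2-fold.

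Cpr66D and Cpr72Ec encode proteins of the corneal lens. Cpr66D (CG32029) had 125 counts in Rev, 37 in IR6 and 20 in iso1a, and Cpr72Ec (CG4784) had 69, 19 and 21. Both were higher in Rev than in IR6, 2.76-fold (log2 ratio 1.46, 0.94 to 2.05) and 2.94-fold (1.55, 0.83 to 2.40). Of the other major lens protein genes, Crys, which encodes the fly lens crystallin, had 1628 counts in Rev, 184 in IR6 and 70 in iso1a, a Rev to IR6 log2 ratio of 2.86 (2.65 to 3.09). The retinin gene went the other way within 2-fold, with 4516 and 5325 counts (−0.52, −0.57 to −0.46). Lens genes thus did not move as a block. Among all genes measured, 4.34% were at least 2-fold higher in Rev than in IR6 and 3.47% lower. Of 5 photoreceptor genes none was higher in Rev, Arr2 was lower and 4 stayed within 2-fold, with no member at 0. Their summed levels were 1617 CPM in Rev and 3145 CPM in IR6, of which Arr2 alone made up 1094 and 2572 CPM. The part of photoreceptor genes in the lens values was not tested.

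The 4 genes lower in Rev had counting intervals wholly beyond 2-fold. Cpr49Ag (CG8511) had 13 counts in Rev, 61 in IR6 and 153 in iso1a, a Rev to IR6 log2 ratio of −2.47 (−3.50 to −1.63). Cpr62Bc (CG1919) had 85, 347 and 666 counts (−2.30, −2.67 to −1.96). Acp65Aa was 3.32-fold lower in Rev (−1.73, −1.84 to −1.62) and Cpr92F 2.67-fold lower (−1.42, −1.62 to −1.22). Cpr49Ag, Cpr62Bc and Cpr92F shared the order Rev, IR6, iso1a from lowest to highest, whereas Acp65Aa was highest in IR6.

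The genes of these families tend to stand in rows along the chromosomes. With at most 3 other genes between neighbours, 94 of the 121 genes fell into 17 rows and 27 stood alone. A pair of genes often held nearly all counts of a row: of the 19 genes in the 65A row on arm 3L, Acp65Aa and Cpr65Au held 99.7%, 99.9% and 97.5% of the row's counts in Rev, IR6 and iso1a. In the 49A row on arm 2R, Cpr49Ae held 72.5%, 73.6% and 86.3%.

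Neighbours did not always move together. In the 49A row Cpr49Ag had a Rev to IR6 log2 ratio of −2.47, Cpr49Ab (62 and 92 counts) one of −0.84, Cpr49Ae one of −0.68 and Cpr49Ah (88 and 106 counts) one of −0.55, while Cpr49Ac lay at 1.14. Of the 4 below 0 only Cpr49Ag passed 2-fold. On arm 3L Cpr62Bb (CG13935) had 1188 counts in Rev, 526 in IR6 and 168 in iso1a, and its neighbour Cpr62Bc ran in the opposite order. Counts of Cpr62Bb divided by those of Cpr62Bc, a ratio within a library, gave 14.0 for Rev (11.2 to 17.6), 1.52 for IR6 (1.32 to 1.74) and 0.252 for iso1a (0.212 to 0.299).

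The same ratio within a library set Acp65Aa apart from Cpr65Au in its row. Rev gave 1.88 (1.69 to 2.10), IR6 gave 6.55 (5.89 to 7.29) and iso1a gave 0.299 (0.271 to 0.329). Cpr97Eb and Cpr97Ea varied less against each other, with ratios of 9.38 (8.62 to 10.2), 6.83 (5.96 to 7.86) and 5.97 (4.22 to 8.66). Cpr49Ae to Cpr49Ab stood at 10.6 (8.18 to 14.0), 9.47 (7.63 to 11.9) and 13.9 (12.3 to 15.8), so the intervals of Rev and IR6 overlapped. These 4 pairs were chosen after their values were seen. The iso1a ratios also carry the joint difference in line and normalization.

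Other genes of cuticle building were read from lists of the steps they serve. The list of chitin modification and turnover held enzymes that modify or break down chitin and the chitinase-like Idgf genes. Of its 20 measured genes, 5 were at least 2-fold higher in Rev than in IR6 and none lower (median log2 ratio 0.39). These were the chitinase genes Cht4 (214 counts in Rev, 57 in IR6), Cht5 (231, 50) and Cht7 (123, 44), the chitin deacetylase gene serp (1949, 767) and Idgf4 (4103, 422; log2 ratio 3.00), which encodes a chitinase-like growth factor. Of 8 measured genes of chitin binding and matrix assembly, 3 were higher and none lower (median 0.32): obst-A (2239, 540), Gasp (1202, 469) and dpy (2828, 1165). Chitin synthesis had 0 of 9 on either side (median 0.26), with the most counted, Tret1-1 (a trehalose transporter gene), at 1826 and 2790 counts, mmy at 1683 and 1245, and Gfat1 at 955 and 463. The last 2 encode enzymes that make the sugar precursor of chitin. With TMM scaling serp, Gasp and dpy were within 2-fold.

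Of 26 measured genes of sclerotization and pigment, the hardening and darkening of cuticle, 3 were higher in Rev and none lower (median 0.39). These were ple, the tyrosine hydroxylase gene that opens the pathway (2752 counts in Rev, 914 in IR6, 6229 in iso1a), yellow-h (595, 229, 571) and speck (1892, 671, 42), the gene of an enzyme that acetylates dopamine. Among 7 measured genes of other structural cuticle proteins, Crys and Vajk1 (122, 41, 42) were higher and none lower (median −0.37). Of 20 measured genes of moulting and eclosion signals, br (174, 69) and spo (145, 49) were higher and none lower (median 0.37), and br was within 2-fold with TMM scaling. The share of all genes at least 2-fold higher, 4.34%, stands beside each of these counts.

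**Figure D4:**
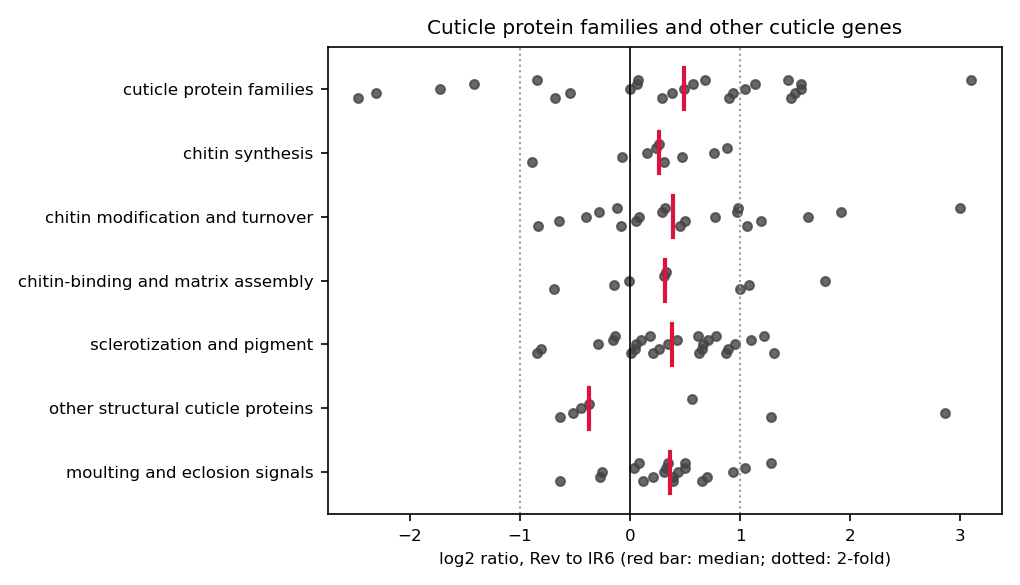
Log2 ratio of Rev to IR6 for each measured gene of the cuticle protein families and of 6 lists of other cuticle genes, with the median of each as a red bar and 2-fold as dotted lines. Medians of the lists run from −0.37 for other structural cuticle proteins to 0.39, and while the cuticle protein families reach down to −2.47, the lowest ratio in the other lists is −0.89 (Tret1-1).

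Larval serum protein genes, markers of the fat body of the larva, also differed between these libraries. Lsp1alpha, Lsp1beta and Lsp1gamma summed to 137 CPM in Rev, 52.4 in IR6 and 193 in iso1a, 2 of the 3 were at least 2-fold higher in Rev than in IR6, and none was at 0. The larval salivary gland genes were at or near 0 throughout. Whether the larval serum protein values have a part in the cuticle protein values was not tested.

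The iso1a whole body was set against Rev and IR6 together, and a gene was counted only where both ratios passed 2-fold in the same direction. Here 35.2% of the 10316 genes measured were higher in iso1a, 19.3% lower and 54.5% either, so large differences were common. Of 24 cuticle protein genes with at least 50 counts in each pair, 13 were higher, 4 were lower and 7 did not pass. Cpr49Ac, Cpr49Ag, Cpr56F, Cpr60D, Cpr62Ba and TwdlE would have missed the minimum in a pair had both its libraries been at the lower level, and 5 of these 6 were among the higher. Without them 8 of 18 were higher (44.4%) and 4 lower (22.2%), beside 31.3% higher, 18.3% lower and 49.6% either of the 8986 genes that pass in this way. The median log2 ratio of the 24 was 2.01 to Rev and 2.00 to IR6, and that of the 18 was 0.80 and 1.48, beside 0.41 and 0.53 over all genes. Other scalings turned the split of all genes from 3635 higher and 1991 lower to 2620 and 2867 (TMM) or 2725 and 2757 (median ratio). These ratios share the Rev and IR6 libraries with the values above, so they are no independent view of those lines.

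Highest against the other lines were Cpr62Ba (5 counts in Rev, 6 in IR6, 88 in iso1a), Cpr60D (10, 8, 73) and Cpr51A (65, 38, 259). Cpr62Ba and Cpr60D met the minimum only through their iso1a counts, so their place in this ranking depended on the library where they were high. The log2 ratios of Cpr51A were 3.40 to Rev (3.01 to 3.83) and 3.89 to IR6 (3.41 to 4.44), and it overlaps CG30197 on the other strand. Cpr65Au stood at 3.28 (3.13 to 3.42) and 3.35 (3.19 to 3.51), Cpr49Ae at 3.95 (3.83 to 4.08) and 3.27 (3.17 to 3.38), and Cpr49Ab at 3.56 (3.16 to 3.99) and 2.71 (2.37 to 3.07). Of these, Cpr65Au and Cpr49Ae were also the most abundant per kilobase in iso1a.

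Lower in iso1a were Cpr97Eb, with log2 ratios of −3.20 to Rev (−3.40 to −3.01) and −1.70 to IR6 (−1.91 to −1.50), Cpr97Ea (−2.54 and −1.49), Cpr47Ee (208 counts in Rev, 140 in IR6, 16 in iso1a; −2.24 and −1.95) and Cpr64Aa (232, 119, 22; −1.95 and −1.27). Cpr97Eb and Cpr97Ea thus went down together. Cpr64Aa overlaps CG43367 on the other strand, which had 1, 3 and 0 counts in Rev, IR6 and iso1a. Acp65Aa changed sign with the line it was set against, at 0.62 to Rev (0.47 to 0.78) and −1.11 to IR6 (−1.24 to −0.97). Cpr100A was higher in both ratios, 0.98 and 1.92, but short of 2-fold against Rev.

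**Figure D5:**
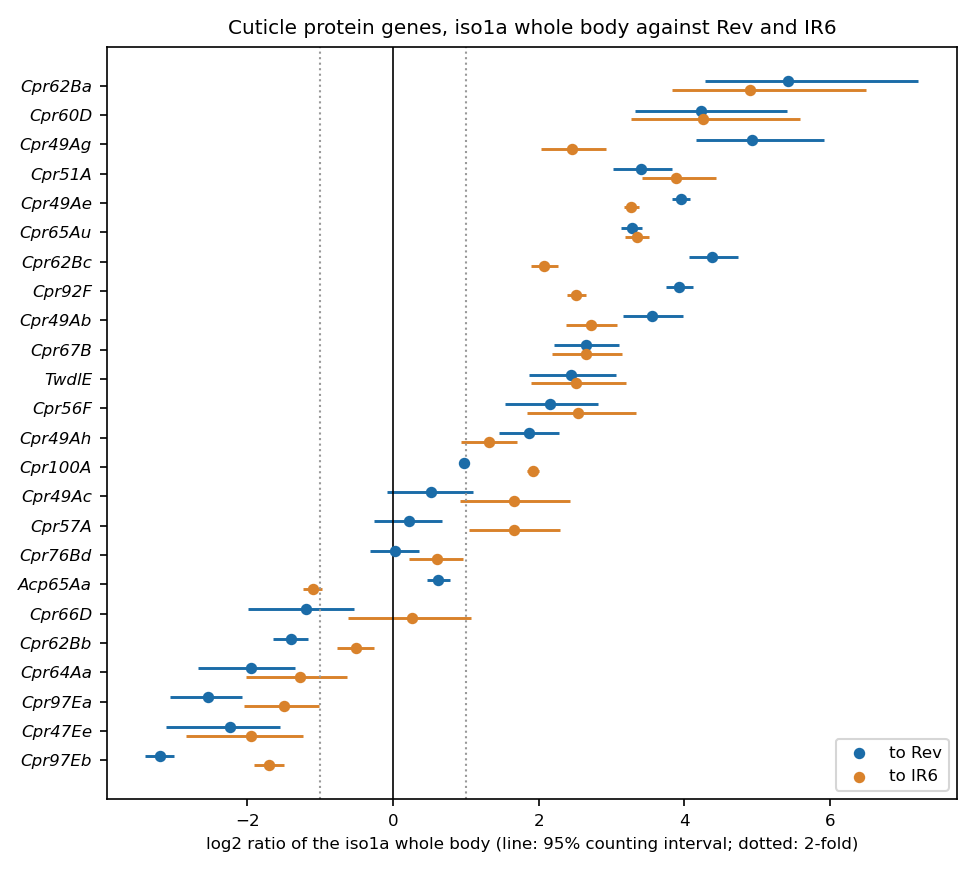
Log2 ratios of the iso1a whole body to Rev (blue) and to IR6 (orange) for the 24 cuticle protein genes measured in both pairs, with 95% counting intervals and 2-fold as dotted lines. The 2 ratios of Cpr65Au nearly coincide (3.28 and 3.35), those of Cpr62Bc lie apart (4.38 and 2.08), and the lowest ratios are those of Cpr97Eb to Rev (−3.20) and Cpr47Ee to IR6 (−1.95).

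Markers of some other tissues moved with iso1a too. The 10 eggshell genes summed to 20846 CPM in Rev, 20521 in IR6 and 557 in iso1a, and by the same rule 8 of them were lower in iso1a and 1 higher. The 5 fat body genes summed to 1035 CPM against 62405 and 62126, with 3 lower and 1 higher. The 3 lower were the yolk protein genes Yp1, Yp2 and Yp3, which also had counts in both ovary libraries. Yp1 alone had 42335 CPM in Rev, 42958 in IR6 and 225 in iso1a. In the same order Lsp2 had 157, 126 and 172 CPM and Fbp1 had 68.3, 27.0 and 208 CPM. The 5 accessory gland genes summed to 1731 CPM against 358 and 395, with 3 higher. Of these, SP (9 counts in Rev, 4 in IR6, 159 in iso1a) met the minimum only through iso1a. The 5 muscle genes summed to 6016 CPM against 8650 and 8503, with 1 higher, 1 lower and 3 not passing. Their median log2 ratio was 0.21 to Rev and 0.42 to IR6. The lower gene, Act79B, had 5005 CPM in Rev, 5126 in IR6 and 269 in iso1a. No gene of these 4 lists was at 0 in a whole body, and their part in the cuticle protein values was not tested.

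Among other cuticle genes, moulting and eclosion signals had 11 of 17 measured genes higher in iso1a and 1 lower. Eip93F, an ecdysone-induced gene of adult development, had 911 counts in Rev, 906 in IR6 and 4188 in iso1a. Sclerotization and pigment had 8 higher and 7 lower of 24, chitin modification and turnover 8 and 6 of 20, and chitin binding and matrix assembly 4 and 3 of 10. Chitin synthesis had 2 and 1 of 9, and other structural proteins 2 and 2 of 6. The shares of all genes, 35.2% higher and 19.3% lower, stand beside each of these counts and those of the tissue markers. The minimum of 50 counts in each pair applied to these lists as well. Some genes called higher met it only through iso1a, among them rtv (7 counts in Rev, 22 in IR6, 205 in iso1a) and obst-F (6, 3, 223). List counts with the minimum met at the lower library's level are not given here.

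Most cuticle protein genes had no count in the ovary libraries. Of the 121 genes, 5 had any count there: the family held 78 counts in the Solexa library, 0.00277% of gene counts (0.00219 to 0.00346), and 4 in the 454 library, 0.00364% (0.000991 to 0.00931). By library, 3 cuticle protein genes had counts in Solexa and 4 in 454. Of all 13265 listed genes, 5804 and 5084 had counts there. Tissue, assay and depth differ together between ovary and whole-body libraries, so no ratio was formed.

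Cpr50Cb (CG6305) had 40 counts in the Solexa library and 1 in the 454 library, beside 44, 12 and 4 in the whole bodies of Rev, IR6 and iso1a. Cpr65Ay (CG34271) had 31 and 1 in the ovary libraries and 0 in all 3 whole bodies. Its 31 counts stand for 11.0 CPM, while a count of 0 allows up to 0.257, 0.311 and 0.685 CPM in Rev, IR6 and iso1a. Acp65Aa had 7 counts in the Solexa library and 0 in the 454 library, and Ccp84Ag and Cpr30B had 1 each in the 454 library alone, where 3 counts stand for 27.3 CPM. No gene named Twdl or Lcp had a count in the ovary.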

How the data were processed

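The deposited gene values are raw read counts per annotated transcript, used as the authors deposited them. Bowtie is the aligner in the submitters' processing notes; not given in the sources used here were the build, the counting step, the handling of multiply fitting reads and what normalization means. A gene took the largest count among its transcripts, and 0 where none was listed. A row with no gene name (at most 0.0155% of counts) was left out. Symbols came from RefSeq (Release 6), by locus tag for 12473 identifiers and by synonym for 548, while 244 had none. Lengths, overlaps and gene order came from Ensembl release 115 (BDGP6). As the build of the counts is not stated, no positions are given. The transposable element files were not used.

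CPM is counts per 1000000 of the library's gene total. Ratios are log2 of CPM after adding 0.5 counts, with an exact interval conditional on the sum, and a call needed 2-fold and 50 counts. Alternative scalings used TMM factors (edgeR 4.0.16) and size factors by median ratio (DESeq2 1.42.0, R 4.3.3). Python 3.11.15 with numpy 2.4.6, pandas 2.3.3, scipy 1.17.1 and matplotlib 3.10.9 did the rest, tested on simulated counts.

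Members and lists were chosen with earlier results of these data known. Named members are the 12 with the highest mean level, the 8 largest ratios each way between Rev and IR6, the 6 each way for iso1a, those with at least 3 ovary counts, the top 2 of each name group, the lens genes and Acp65Aa, and up to 3 of each list. Chosen after their values were seen were the other Ccp84 and Lcp65Ag genes, TwdlB, TwdlD, TwdlP, Cpr30B, Cht4, Cht5, Cht7, yellow-h, speck, Vajk1, br, spo, Arr2, Act79B, SP, rtv and obst-F. The same holds for nos, bam, Yp1, Yp2, Yp3, Lsp2 and Fbp1.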

Additional observations from a re-analysis of the deposited data

How the results depend on the processing

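With TMM factors 7 cuticle protein genes were higher and 4 lower in Rev than in IR6, and with median-ratio factors also 7 and 4. Over all genes these factors turned the split between higher and lower in both comparisons. The cuticle median of iso1a went from 2.01 to 1.52 against Rev (TMM) and from 2.00 to 1.42 (TMM) or 1.46 (median-ratio) against IR6. A minimum of 200 counts left 2 genes higher and 3 lower in Rev, and 7 higher and 2 lower in iso1a. With any count admitted, 25 were higher and 20 lower in Rev, and 38 higher and 6 lower in iso1a. Without a minimum even 1 count against 0 passed 2-fold, as for Ccp84Ac in Rev against IR6 (log2 ratio 1.31). The share of all genes at either of these settings is not given here, so these counts are not read as results about the family. Requiring the counting interval to lie beyond 2-fold left 2 higher and 4 lower in Rev, again without the share of all genes. Sums over transcripts put the family's share of gene counts at 0.0757% in Rev, 0.0581% in IR6, 0.157% in iso1a and 0.00207% in the Solexa ovary. Without each library's most counted member the shares were 0.0900%, 0.0800%, 0.235% and 0.00135%. Under TMM factors the Rev to IR6 log2 ratios of Cpr65Au (0.07 to −0.02) and TwdlE (0.07 to −0.02), both within 2-fold, changed sign, and no named ratio beyond 2-fold did under TMM factors or transcript sums. The alternative without near-identical proteins was not run, since no protein sequences were used here. Some alternatives were chosen after the data were seen. Scaling to the family total gave 6 higher and 6 lower in Rev. Without members that overlap another gene the counts were 7 and 4 of 19 in Rev and 9 and 3 of 18 in iso1a, and the iso1a to Rev median was 1.42. Shares of all genes under the family-total scaling and the overlap rule are not given here. With the minimum met at the lower library's level, 5 were higher in Rev and 8 in iso1a, and the iso1a medians were 0.80 to Rev and 1.48 to IR6. Against Rev alone 7 were lower in iso1a. No paired analysis was possible because each group holds 1 library.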
